A study of Oryctolagus cuniculus with 20 samples.

Results

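The 5 genes described here belong to the circadian clock: ARNTL (ENSOCUG00000005940), CLOCK (ENSOCUG00000022350), PER1 (ENSOCUG00000026333), NR1D2 (ENSOCUG00000009329) and NFIL3 (ENSOCUG00000000145). They are 5 of the 23669 genes counted in tricuspid valves of female New Zealand white rabbits, which were 8 weeks old when treatment started. Each of the 4 groups held 5 valves. For 16 weeks the rabbits took serotonin in drinking water at a daily dose of 80 mg/kg, pergolide at 0.5 mg/kg or dexfenfluramine at 20 mg/kg, or served as non-treated controls. Serotonin is the transmitter itself, pergolide an ergot-derived dopamine agonist and dexfenfluramine an appetite suppressant of the amphetamine family. The doses are those of the sample labels, and the study gives a lower dexfenfluramine dose in one place. Valves were frozen after dissection, and the hour of collection is not given in the sources used here, so its part in any difference below was not tested. The genes were picked because earlier fits of these same counts had called several of them in a treatment against non-treated valves. Differences of the 5 genes from the non-treated group are therefore given as values without p-values, and their calls are counted once, with nothing read from the count.

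The clock is a feedback loop of transcription that runs in nearly every cell, heart included. The proteins of ARNTL (also called BMAL1) and CLOCK form a dimer that binds E-box elements and activates PER, CRY and REV-ERB genes. PER and CRY proteins then repress the dimer, while the REV-ERB receptors, of which NR1D2 is one, repress ARNTL and NFIL3 and compete with the ROR activators. NFIL3 in turn represses genes at D-box elements, where DBP, TEF and HLF activate. ARNTL and NFIL3 thus peak in one phase of the cycle and the REV-ERB and PER genes in another, and light, feeding, glucocorticoids and temperature can set the phase.

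All 5 genes passed the filter on low counts that left 8683 genes. Total counts per valve ran from 3247091 to 5921025, of which 20.3% to 48.1% fell on ENSOCUG00000029084, a gene with no symbol in the sources used here. Levels are CPM (read counts scaled to a library of common size) after TMM normalization, which corrects for such a dominant gene. Levels are not divided by gene length and are compared here only within a gene. The valves also held cardiac muscle RNA. Of 10 cardiomyocyte markers, 6 had an ID, none was at 0 in any valve (the lowest count was 368, of MYBPC3), and their summed level was 47810 to 146035 CPM in non-treated valves, 51619 to 101116 after serotonin, 46594 to 88875 after pergolide and 12199 to 68446 after dexfenfluramine. Markers of valve interstitial cells, the fibroblast-like cells of the leaflet, summed to 6279 to 16510 CPM over all valves. Dexfenfluramine replicate 3 alone gave the low cardiomyocyte end of its group, and the other valves of that group had 50667 to 68446 CPM. The same valve had the highest interstitial sum, the highest TMM factor (1.716) and the smallest total count. In such bulk tissue, fewer cells of a type and less RNA per cell cannot be told apart.

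ARNTL, the partner of CLOCK in the activating dimer, had the widest differences between groups among the 5 genes. In non-treated valves 1 to 5 its level was 20.9, 5.42, 22.6, 20.6 and 9.20 CPM. After serotonin it was 2.33, 2.22, 1.17, 2.41 and 4.78 CPM, and all 5 valves lay below the lowest non-treated valve. After pergolide it was 0.958, 4.44, 1.26, 4.92 and 1.96 CPM, again with no overlap. After dexfenfluramine it was 3.23, 5.69, 3.42, 2.42 and 21.3 CPM, so that replicate 5 sat among the high non-treated valves, replicate 2 just above the lowest of them and the other three below it. The non-treated mean was 15.8 CPM ± 7.86 (SD, n = 5), and the means after serotonin, pergolide and dexfenfluramine were 2.58 ± 1.33, 2.71 ± 1.85 and 7.22 ± 7.98 CPM (SD, n = 5 each). The log2 fold change against non-treated valves was -2.59 (SE 0.615) for serotonin, -2.50 (SE 0.573) for pergolide and -1.09 (SE 0.512) for dexfenfluramine, and the last was -2.07 without dexfenfluramine replicate 5. These levels rest on few reads, 4 to 17 per serotonin valve and 5 to 28 per pergolide valve against 20 to 129 per non-treated valve.

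CLOCK, the other protein of the dimer, was lower by a smaller margin. Its level in non-treated valves 1 to 5 was 76.5, 83.2, 82.5, 93.0 and 78.9 CPM, the tightest of the 5 genes. After serotonin it was 60.8, 68.0, 52.0, 67.8 and 76.7 CPM, where replicate 5 reached the lowest non-treated valve. Pergolide valves lay at 66.7, 70.2, 65.3, 67.4 and 63.2 CPM, all below every non-treated valve. Dexfenfluramine valves lay at 72.3, 67.4, 49.7, 60.4 and 81.0 CPM, and replicate 5, the valve with high ARNTL, was again within the non-treated range. The log2 fold changes were -0.35 (SE 0.113), -0.32 (SE 0.111) and -0.32 (SE 0.111) for serotonin, pergolide and dexfenfluramine, or about 1.24-fold to 1.27-fold lower, and the last was -0.18 with svaseq variables in limma-voom. The mean TMM factor was 0.82 in non-treated, 1.115 in pergolide and 1.31 in dexfenfluramine valves. Before scaling, these groups held 1648, 1807 and 1832 reads of CLOCK, at mean total counts of 4922924, 4913710 and 4336202. The lower level after either drug thus rests on the scaling, and fold changes without TMM were not computed. Serotonin valves held 1180 reads at a mean total of 4149306.

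Of the repressing arm, NR1D2, which encodes the receptor REV-ERBβ, was higher after TMM in every treated valve than in any non-treated one. Non-treated valves 1 to 5 had 102, 234, 269, 143 and 247 CPM, so the highest was 2.63-fold the lowest, a wider ratio than in any treated group. After serotonin the values were 404, 288, 399, 282 and 450 CPM. After pergolide they were 463, 421, 370, 356 and 431 CPM. After dexfenfluramine they were 390, 303, 445, 409 and 314 CPM. On this scale no treated valve overlapped the non-treated range, whose top was replicate 3. In counts before scaling, serotonin valves did overlap it. Serotonin replicates 2 and 4 held 910 of 4797371 and 1052 of 4880440 reads, and non-treated replicate 3 held 1534 of 4573978. The means were 199 CPM ± 72.4 (SD, n = 5) without treatment and 365 ± 75.4, 408 ± 44.4 and 372 ± 61.7 (SD, n = 5 each) after serotonin, pergolide and dexfenfluramine. The log2 fold changes were 0.87 (SE 0.206), 1.03 (SE 0.206) and 0.90 (SE 0.205), the first of which was 0.51 with svaseq variables in limma-voom.

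PER1, a PERIOD gene whose protein inhibits the dimer and which also responds directly to glucocorticoids, overlapped the non-treated range in every treated group. Its level in non-treated valves 1 to 5 was 9.38, 11.7, 17.2, 10.0 and 12.9 CPM. After serotonin it was 22.1, 10.4, 26.0, 9.92 and 12.9 CPM, where replicates 1 and 3 were high and the rest were like the controls. After pergolide it was 19.9, 11.4, 21.9, 19.2 and 21.3 CPM, with replicate 2 alone in the non-treated range. After dexfenfluramine it was 28.6, 26.9, 21.6, 23.9 and 16.5 CPM, and replicate 5 alone fell below the highest non-treated valve. The log2 fold changes were 0.39 (SE 0.262), 0.59 (SE 0.254) and 0.91 (SE 0.251) for serotonin, pergolide and dexfenfluramine. With svaseq variables, which are estimated from the counts, they were 0.11, 0.12 and 0.39 in limma-voom, and the serotonin value was 0.25 and 0.17 without serotonin replicate 1 or 3.

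NFIL3, the D-box repressor (also called E4BP4), was low in the treated groups, on the side of ARNTL. Non-treated valves 1 to 5 had 10.8, 3.79, 2.98, 5.29 and 5.98 CPM. Serotonin valves had 0.699, 2.22, 0.877, 1.61 and 1.40 CPM, all below the non-treated range. Pergolide valves had 0.766, 3.42, 2.32, 2.29 and 1.25 CPM, of which replicate 2 overlapped. Dexfenfluramine valves had 3.66, 3.79, 1.80, 2.05 and 4.49 CPM, and 3 of them overlapped. The log2 fold changes were -2.04 (SE 0.441), -1.45 (SE 0.387) and -0.81 (SE 0.366) for serotonin, pergolide and dexfenfluramine. With svaseq variables in limma-voom they were -1.26, -0.79 and 0.05, and the dexfenfluramine value was -0.50 without non-treated replicate 1. Serotonin valves held only 3 to 7 reads of NFIL3 each, and 3 is the count treated here as the floor, so the size of the fold is poorly set at this depth.

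**Figure D1:**
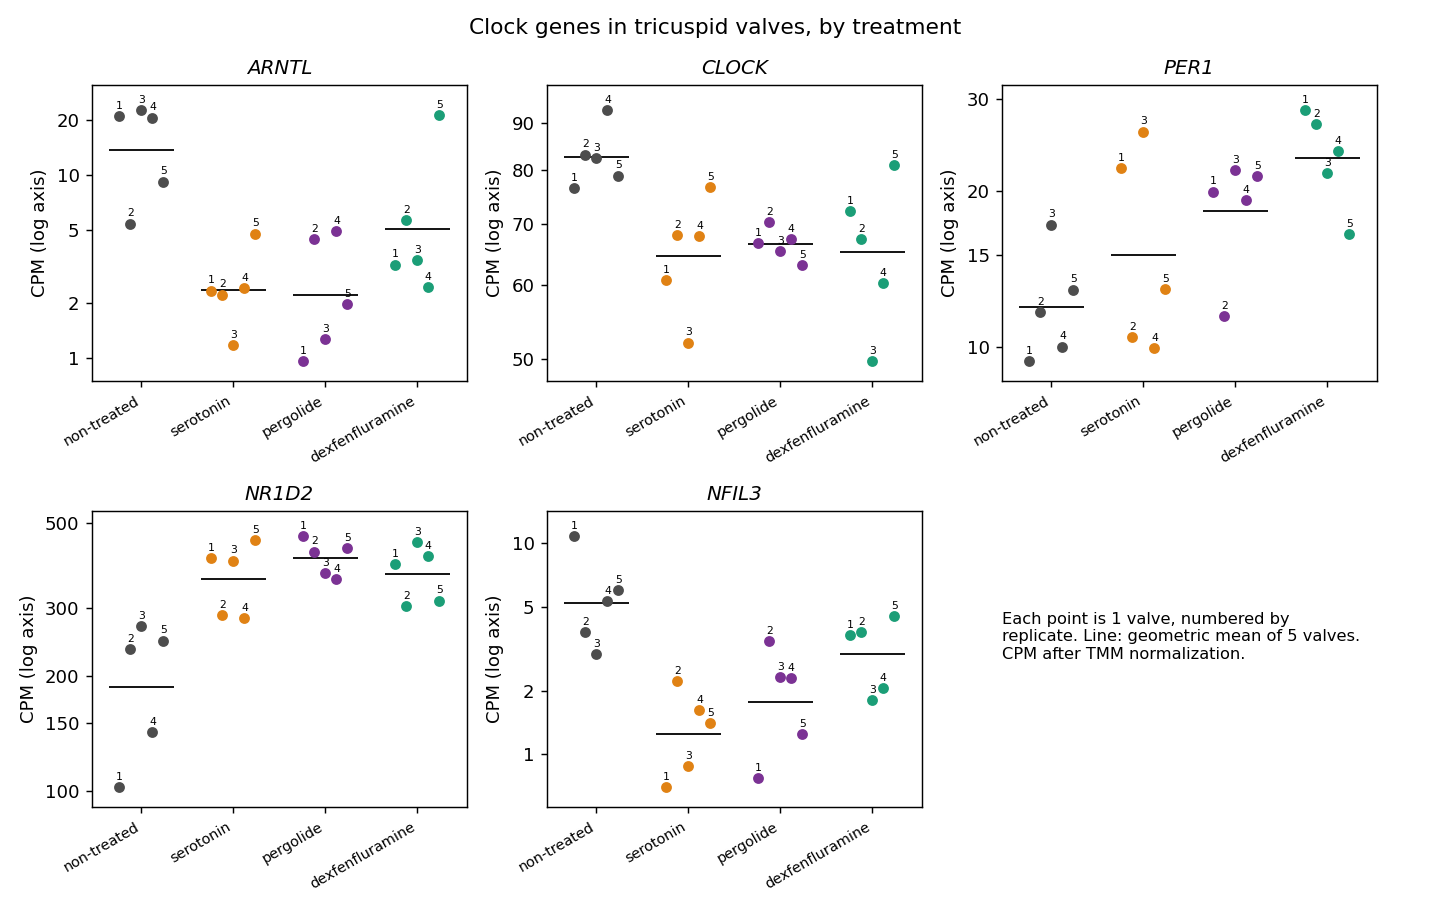
Level of each of the 5 clock genes in every valve, in CPM after TMM on a log axis, by group, where each point is 1 valve numbered by replicate and each line the geometric mean of 5 valves. ARNTL after serotonin and pergolide lies wholly below the non-treated valves, NR1D2 lies wholly above them in all 3 treatments, and dexfenfluramine replicate 5 keeps an ARNTL level of 21.3 CPM.

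By edgeR's quasi-likelihood test with Benjamini-Hochberg adjustment over all tested genes, 3 of the 5 genes were called after serotonin, 4 after pergolide and 3 after dexfenfluramine. Of all tested genes 1.19%, 24.8% and 28.9% were called in the same comparisons. Groups did not overlap in 3, 3 and 1 of the 5 genes, against 2.66%, 16.3% and 17.0% of all tested genes. The genes were picked on these contrasts, so nothing is read from these counts. The serotonin count was 0, as was that of all genes, in a fit of the compared groups alone and in fits that left out serotonin replicate 1 or either of non-treated replicates 2 and 5. The 3 comparisons also share the same non-treated valves.

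The ratio of ARNTL to NR1D2, in which a library's scaling factor cancels apart from the prior count, put both arms on one scale. As log2 CPM of ARNTL minus that of NR1D2, its mean was -3.72 ± 1.28 (SD, n = 5) without treatment, with valves from -5.33 to -2.27. The means of serotonin, pergolide and dexfenfluramine valves were -7.00 ± 0.606, -7.23 ± 0.962 and -6.05 ± 1.36 (SD, n = 5 each). Every serotonin and pergolide valve was below every non-treated valve, and 4 of the 5 dexfenfluramine valves were too, the exception being replicate 5 at -3.85. NFIL3 against NR1D2 gave -5.04 ± 1.20 without treatment and -7.71 ± 0.740, -7.50 ± 0.772 and -6.75 ± 0.727 after serotonin, pergolide and dexfenfluramine (SD, n = 5 each).

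**Figure D2:**
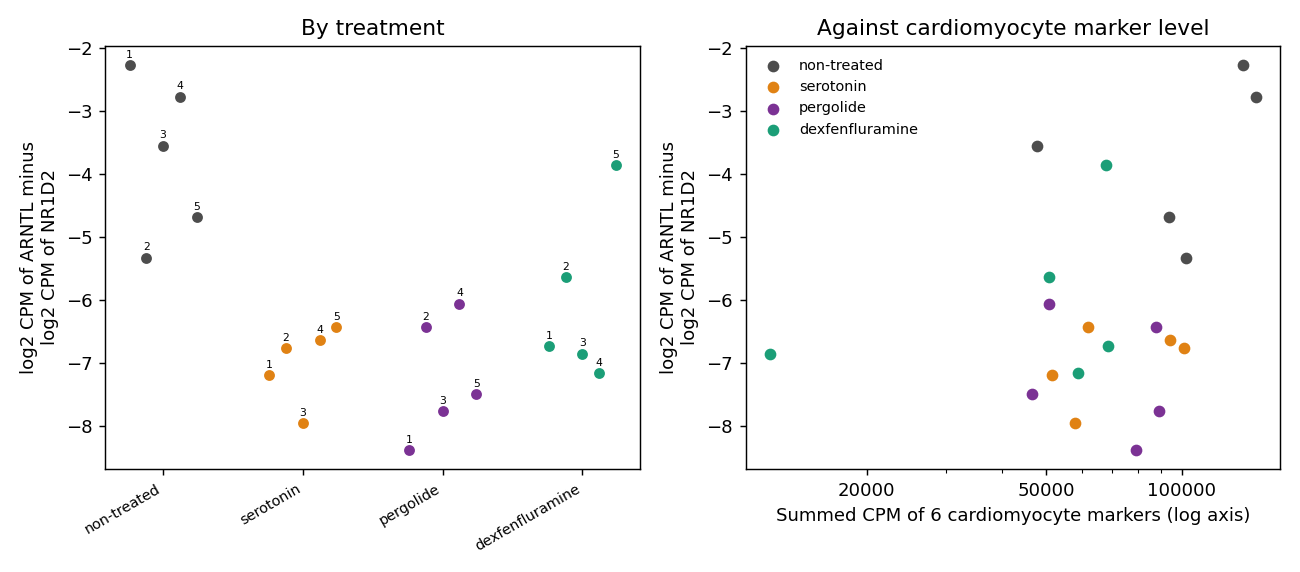
Log2 CPM of ARNTL minus log2 CPM of NR1D2 in each valve, by group with replicate numbers (left) and against the summed CPM of 6 cardiomyocyte markers on a log axis (right). Non-treated valves run from -5.33 to -2.27, and dexfenfluramine replicate 5 is the only treated valve among them, at -3.85.

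Of the cardiomyocyte markers in the same fit, 1 of 6 was called lower after pergolide (TNNT2), 3 of 6 after dexfenfluramine (TNNT2, MYH7 and PLN) and 0 of 6 after serotonin (1 at an unadjusted p under 0.05, and 0 with DESeq2 or limma-voom), with median log2 fold changes of -0.80, -1.09 and -0.44. After dexfenfluramine DESeq2 called 5 of 6 and limma-voom 4 of 6, and after pergolide each called 1 of 6. The shares of all tested genes called by edgeR in these comparisons were 24.8%, 28.9% and 1.19%, so the pergolide and serotonin counts are no higher than the background. Marker symbols came only from the study's lists of differentially expressed genes in these valves, so these counts are no independent evidence of a change. With the summed marker level as a covariate, the log2 fold changes of ARNTL were -2.50, -2.39 and -0.88 for serotonin, pergolide and dexfenfluramine, and those of NR1D2 0.76, 0.92 and 0.61. Those of PER1 were 0.30, 0.49 and 0.69, and those of CLOCK -0.28, -0.24 and -0.16. NFIL3 kept -1.75 after serotonin and -1.12 after pergolide, while its value after dexfenfluramine was -0.15. In proportion, the dexfenfluramine values of NFIL3 and CLOCK changed most with this covariate.

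The treatments were also set against each other, in contrasts that did not pick the genes but share their treated valves. Pergolide and serotonin valves differed in 0 of 9 clock genes (the 5 described above and the 4 below), where 27.5% of all tested genes were called. At an unadjusted p under 0.05 there was 1 of 9, and DESeq2 and limma-voom called 0. ARNTL differed by 0.09 on the log2 scale with a 95% interval of -1.37 to 1.56, an interval this wide does not show that the groups were alike. For NR1D2 the difference was 0.16 (95% interval -0.26 to 0.59), and for CLOCK 0.03 (95% interval -0.20 to 0.27), which is the narrowest of the 5. PER1 differed by 0.19 (95% interval -0.33 to 0.71) and NFIL3 by 0.59 (95% interval -0.41 to 1.58). With a valve left out, PER1 ran from 0.0467 to 0.418, NFIL3 from 0.295 to 0.803 and NR1D2 from 0.0711 to 0.249. CIART had the lowest p of the 9, 0.88 higher after pergolide (edgeR adjusted p = 0.067), and passed with the replicate block (0.046), with svaseq variables in edgeR (0.039) and without serotonin replicate 3 (0.020) or pergolide replicate 4 (0.041).

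Between dexfenfluramine and serotonin, where 30.3% of all tested genes were called, NFIL3 alone of the 9 was called. It was 2.35-fold higher after dexfenfluramine (log2 difference 1.23, SE 0.452, edgeR's quasi-likelihood adjusted p = 0.043), although valves of the groups overlapped. The call was lost with limma-voom (adjusted p = 0.080), the replicate block in edgeR (0.057) and no filter in edgeR (0.052), and over all other settings the adjusted p went down to 0.004. It was also lost when any of 7 of the 10 valves was left out: 0.11 without serotonin replicate 1, 0.090 without 3, 0.063 without 4 and 0.071 without 5, and 0.075 without dexfenfluramine replicate 1, 0.083 without 2 and 0.10 without 5. ARNTL was 2.83-fold higher after dexfenfluramine than after serotonin (95% interval 0.18 to 2.82 on the log2 scale) with an edgeR adjusted p of 0.078. DESeq2 gave an adjusted p of 0.040 for it, edgeR gave 0.045 without dexfenfluramine replicate 4, and leaving out dexfenfluramine replicate 5 brought its log2 difference from 1.50 to 0.52. PER1 differed by 0.52 (95% interval 0.005 to 1.03, edgeR adjusted p = 0.12), which became 0.74 with an adjusted p of 0.028 without serotonin replicate 3. CLOCK and NR1D2 differed by 0.02 and 0.03, with 95% intervals of -0.21 to 0.26 and -0.39 to 0.45.

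Between dexfenfluramine and pergolide edgeR called 0 of the 9 clock genes and 0% of all tested genes. At an unadjusted p under 0.05 these were 1 of 9 and 613 of 8683, DESeq2 called 0 of 9 and 4 of all genes, and limma-voom called none of either. The 1 gene was ARNTL, 1.41 higher after dexfenfluramine on the log2 scale (95% interval 0.19 to 2.63, edgeR adjusted p = 0.68), and 0.42 higher without dexfenfluramine replicate 5. NR1D2 differed by -0.13 (95% interval -0.56 to 0.29). In the order of mean levels, ARNTL thus ran from non-treated through dexfenfluramine to pergolide and serotonin, and no pair of treatments passed edgeR's test for it after adjustment with all valves in the fit.

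A further 16 clock genes were on a written list, of which CRY2, CIART, RORA and HLF had an ID. Symbols came only from the study's own lists of differentially expressed genes in these valves, so a gene that never changed could hardly be on this list, and the counts below are no independent evidence of a direction. No gene of the 4 was called after serotonin by edgeR, DESeq2 or limma-voom, though 2 had an unadjusted edgeR p under 0.05. After pergolide 3 of 4 were called higher and after dexfenfluramine 2 of 4, against 12.1% and 13.5% of all tested genes called higher (1.04% after serotonin). Their median log2 fold change was 0.33, 0.66 and 0.57 for serotonin, pergolide and dexfenfluramine, while the median of all tested genes was 0.015, 0.023 and 0.032.

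HLF, a D-box activator and so a counterpart of NFIL3, rose under both drugs. Its level was 9.38, 13.8, 10.5, 6.18 and 10.4 CPM in non-treated valves 1 to 5. It was 14.0, 9.81, 16.1, 13.9 and 15.4 CPM after serotonin, and the groups overlapped. It was 19.3, 19.5, 15.8, 14.9 and 17.6 CPM after pergolide, all higher than any non-treated valve, and 17.4, 18.3, 20.0, 22.4 and 12.7 CPM after dexfenfluramine, where replicate 5 was again the one valve in the non-treated range. The log2 fold change was 0.79 (SE 0.181, edgeR adjusted p = 0.0034) for pergolide and 0.84 (SE 0.181, adjusted p = 0.0018) for dexfenfluramine. Both calls held in every alternative fit, with adjusted p-values of at most 0.013 and 0.031. After serotonin the log2 fold change was 0.46 (edgeR adjusted p = 0.24).

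CRY2, a cryptochrome that represses the dimer together with PER proteins, was 8.80 CPM ± 1.52 without treatment, 10.4 ± 2.01 after serotonin, 13.0 ± 2.40 after pergolide and 13.2 ± 1.59 after dexfenfluramine (SD, n = 5 each). It rose by 0.54 after pergolide (SE 0.162, edgeR adjusted p = 0.019) and by 0.57 after dexfenfluramine (SE 0.161, edgeR adjusted p = 0.012) on the log2 scale, and all dexfenfluramine valves lay above the non-treated ones. The pergolide call was lost without non-treated replicate 1 (adjusted p = 0.056), non-treated replicate 4 (0.053) or pergolide replicate 5 (0.065). With svaseq variables in edgeR the adjusted p was 0.14 for pergolide and 0.13 for dexfenfluramine.

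CIART, a repressor of the dimer also known as CHRONO, held 3 to 33 reads per valve. It rose after pergolide by 1.23 on the log2 scale (SE 0.361, edgeR adjusted p = 0.017), a call that did not pass without non-treated replicate 2 (adjusted p = 0.051). Its log2 fold change was 0.35 after serotonin and 0.57 after dexfenfluramine, where edgeR's adjusted p was 0.72 and 0.26. With a valve left out, the former fell to 0.025 (serotonin replicate 3), 0.16 (non-treated replicate 2) or 0.23 (non-treated replicate 4) or rose to 0.61 (non-treated replicate 1), and the latter fell to 0.33 (dexfenfluramine replicate 3) or 0.38 (non-treated replicate 2). With svaseq variables the serotonin value was 0.604 in limma-voom and 0.587 in edgeR. The dexfenfluramine value was 0.334 with the cardiomyocyte covariate. RORA, the ROR activator that shares its binding element with NR1D2, had values of 24.8 CPM ± 3.07 without treatment and 31.0 ± 6.33, 31.3 ± 1.82 and 30.1 ± 5.58 after serotonin, pergolide and dexfenfluramine (SD, n = 5 each). RORA was not called in any treatment, with edgeR adjusted p-values of 0.27, 0.086 and 0.14. Its pergolide value passed with 1 RUVr factor (0.017), with only the compared groups (0.040) and without non-treated replicate 3 (0.043). Its log2 fold change after dexfenfluramine, 0.27, was 0.019 with the cardiomyocyte covariate and 0.0042 with svaseq variables in limma-voom. With a valve left out that value ran from 0.157 to 0.35.

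**Figure D3:**
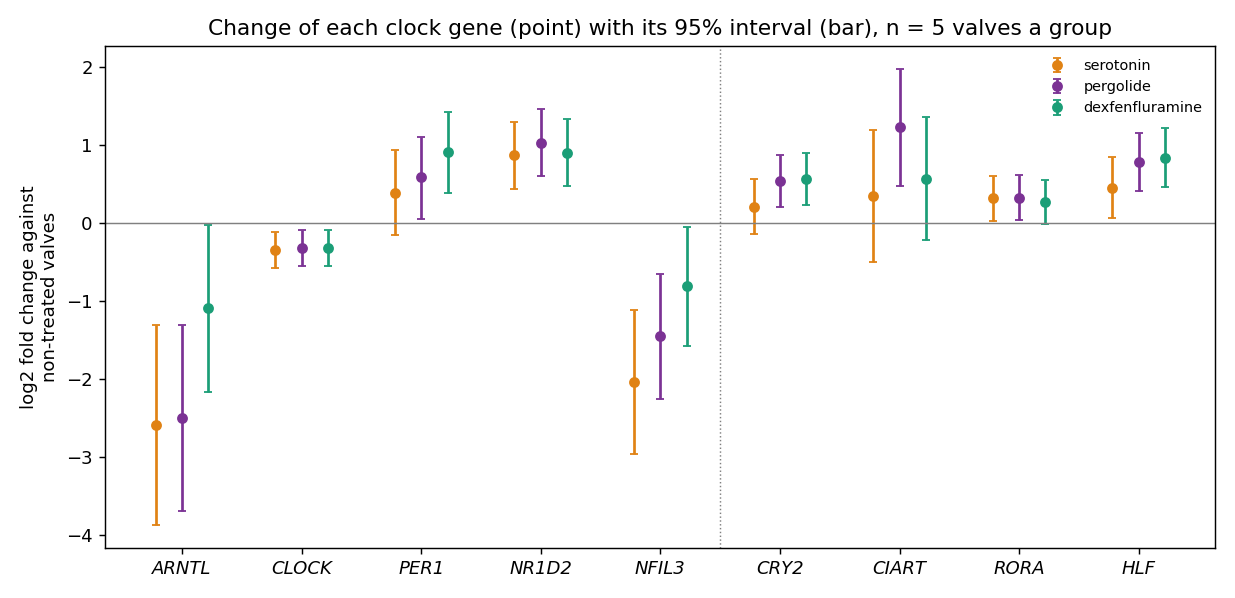
Log2 fold change of 9 clock genes against non-treated valves with 95% intervals, by treatment, where the dotted line separates the 5 described genes (no test) from the 4 others. ARNTL, CLOCK and NFIL3 are on the negative side in all 3 treatments, ARNTL down to -2.59, and the other genes are on the positive side; with svaseq variables in edgeR NFIL3 after dexfenfluramine moves to 0.12, and with the cardiomyocyte covariate RORA moves to 0.019.

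Genes that feed into the clock or read from it were taken from lists with the same limit on symbols. Of the 9 tested genes of these lists edgeR called 7 after pergolide and 5 after dexfenfluramine, where it called 24.8% and 28.9% of all genes. After serotonin, with 1.19% of all genes called, it called 0 of the 9 (1 at an unadjusted p under 0.05, and 0 with DESeq2 or limma-voom). Among the clock modifiers, SKP1, a subunit of ubiquitin ligase complexes, rose by 0.28 after pergolide (SE 0.0921, edgeR adjusted p = 0.030), and NONO, a nuclear RNA-binding protein that interacts with PER proteins, fell by 0.24 (SE 0.0778, edgeR adjusted p = 0.027). CSNK2A1, a kinase subunit gene, was not called in any treatment. With a valve left out, SKP1 was lost without non-treated replicate 3 or 5 or pergolide replicate 1, 3 or 4 (adjusted p up to 0.077) and NONO without non-treated replicate 1 or pergolide replicate 3 or 4 (up to 0.066). The NONO call was also lost with upper-quartile scaling (edgeR adjusted p = 0.057), no filter (0.089), svaseq variables (0.088) and the replicate block (0.051). NAMPT, an enzyme of NAD synthesis that is a known target of the dimer, fell by 0.61 after pergolide (SE 0.111, edgeR adjusted p = 0.00053) and by 0.71 after dexfenfluramine (SE 0.112, adjusted p = 0.00012), from 79.8 CPM ± 10.6 in non-treated valves to 52.1 ± 8.18 and 48.7 ± 4.57 (SD, n = 5 each).

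Cues that can set the clock were represented by few genes. The glucocorticoid-induced gene TSC22D3 (GILZ) rose from 48.4 CPM ± 7.27 in non-treated valves to 86.4 ± 17.8 after pergolide and 95.3 ± 19.3 after dexfenfluramine (SD, n = 5 each), with log2 fold changes of 0.84 and 0.98 (edgeR adjusted p = 0.00057 and 0.00012) and no overlap. Serotonin valves had 49.2 ± 8.46 CPM of TSC22D3 (SD, n = 5), and the log2 fold change was 0.03. SGK1, a kinase gene also induced by glucocorticoids, rose by 0.52 after pergolide (edgeR adjusted p = 0.015), a call lost without non-treated replicate 2 (0.052), and was not called after dexfenfluramine (0.30, edgeR adjusted p = 0.14). The immediate early gene NR4A3, a nuclear receptor, fell by 1.97 on the log2 scale after dexfenfluramine (edgeR adjusted p = 0.028), but its log2 fold change was -0.80 (adjusted p = 0.45) with cardiomyocyte markers as a covariate. Its call was lost without non-treated replicate 1 or 4 or dexfenfluramine replicate 2, 3 or 5, with adjusted p-values of up to 0.13, and also with limma-voom (-1.68, adjusted p = 0.11) and with svaseq variables in limma-voom (-0.75, 0.54) or edgeR (-0.985, 0.36). The heat shock gene HSPB1 fell by 0.66 after pergolide and by 0.58 after dexfenfluramine (edgeR adjusted p = 0.022 and 0.039). The pergolide call was lost without non-treated replicate 1 or 5 or pergolide replicate 1, 2 or 4 (adjusted p up to 0.080), and the dexfenfluramine call without non-treated replicate 1 or 5 or dexfenfluramine replicate 2, 4 or 5 (up to 0.14). With svaseq variables in edgeR the adjusted p was 0.090 for pergolide and 0.091 for dexfenfluramine, and with only the compared groups 0.063 and 0.078. The dexfenfluramine call was also lost with limma-voom (0.077), upper-quartile scaling (0.057), the replicate block (0.057) and the cardiomyocyte covariate (0.10).

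The genes were picked on differences between group means, and the deviations of single valves from those means are described next. ARNTL varied widely between valves of the same treatment. Its SD within groups was 0.906 on the log2 scale, above 98.6% of the 500 tested genes of nearest mean level, whose median was 0.409. PER1 had an SD of 0.427 (90.2nd percentile), NR1D2 0.367 (86.2nd), NFIL3 0.586 (74th) and CLOCK 0.180 (56.2nd). NR1D2 varied more in non-treated valves (SD 0.600) than after serotonin (0.308), pergolide (0.158) or dexfenfluramine (0.243), whereas the SD of ARNTL was 1.17 after dexfenfluramine and 0.459 without replicate 5, against 0.604 to 0.881 in the other groups.

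Within groups r was positive for each pair among ARNTL, CLOCK and NFIL3 and for PER1 with NR1D2, and negative for each pair across these sets, although most pairs did not pass the test. The sign of r was the same in 4 of 4 groups for 5 pairs and in 3 of 4 for the other 5 (ARNTL with PER1 or NR1D2, CLOCK with NR1D2 or NFIL3, and PER1 with NR1D2). With 10 pairs compared over 20 valves, 2 pairs passed a two-sided permutation test that exchanged valves within groups. NR1D2 and NFIL3 had r = -0.70 (p = 0.001, adjusted 0.010) and rho = -0.70 (permutation p = 0.00043, adjusted 0.0043), with the negative sign in 4 of 4 groups. PER1 and NFIL3 had r = -0.62 (permutation p = 0.0059, adjusted 0.030) and rho = -0.49 (permutation p = 0.034, adjusted 0.096), also negative in 4 of 4 groups. The first pair passed in all 20 fits with a valve left out, and the second was lost without serotonin replicate 1, 2 or 5, pergolide replicate 2 or 5 or dexfenfluramine replicate 5 (adjusted permutation p = 0.051 to 0.078). Non-treated replicate 1 had the highest NFIL3 (10.8 CPM) and the lowest NR1D2 (102 CPM) of its group. Without the pair of valves farthest from the median, r was -0.65 for NR1D2 with NFIL3 (permutation p = 0.0075, adjusted 0.075) and -0.54 for PER1 with NFIL3 (permutation p = 0.035, adjusted 0.087), so neither pair passed over 10 pairs.

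None of the other pairs passed after adjustment. ARNTL and CLOCK had r = 0.57 (permutation p = 0.021, adjusted 0.066) and rho = 0.51 (permutation p = 0.031, adjusted 0.096), and r = 0.46 without non-treated replicate 2 and dexfenfluramine replicate 5. ARNTL and NFIL3 had r = 0.50 (permutation p = 0.041, adjusted 0.066), rho = 0.47 (permutation p = 0.067, adjusted 0.096) and r = 0.41 without those valves. ARNTL and NR1D2, target and repressor, had r = -0.36 (permutation p = 0.15, adjusted 0.16), rho = -0.33 (permutation p = 0.17, adjusted 0.19) and r = -0.23 without them. PER1 and NR1D2 had r = 0.48 (permutation p = 0.034, adjusted 0.066), rho = 0.47 (permutation p = 0.056, adjusted 0.096) and r = 0.59 without serotonin replicate 3 and pergolide replicate 2. The other four pairs had r between -0.458 and 0.435. For comparison, the central 95% of the 8682 other tested genes had r with NR1D2 between -0.62 and 0.62 and with ARNTL between -0.43 and 0.44. NFIL3 lay at the 0.703rd percentile of the genes ranked by r with NR1D2. Of those ranked by r with ARNTL, CLOCK lay at the 99.6th percentile, NFIL3 at the 98.9th and PER1 at the 2.23rd, while NR1D2 at the 4.81st was within the central range. Ranked from the other gene of the pair, ARNTL lay within the central range, at the 94.9th percentile by r with CLOCK, the 91.6th with NFIL3 and the 10.2nd with PER1.

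**Figure D4:**
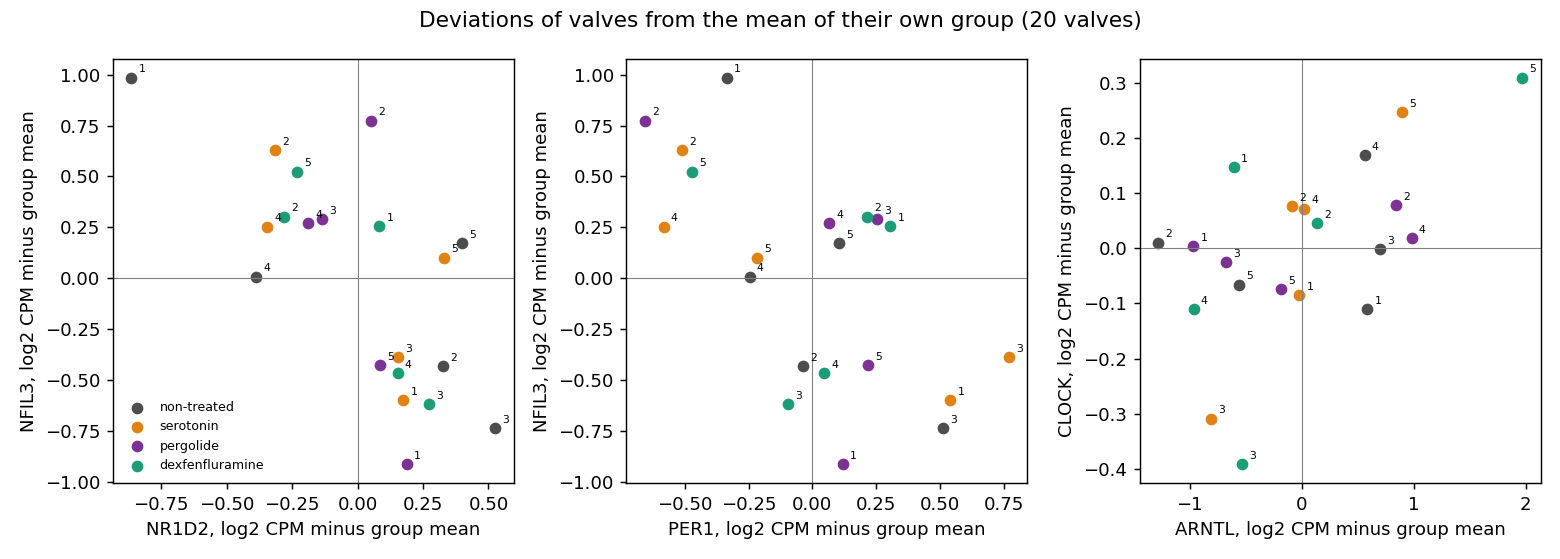
Deviation of each valve from its group mean in log2 CPM for NR1D2 with NFIL3 (left), PER1 with NFIL3 (middle) and ARNTL with CLOCK (right), coloured by group and numbered by replicate. NFIL3 falls where NR1D2 and PER1 are high (r = -0.70 and -0.62), and dexfenfluramine replicate 5 is at the top for both ARNTL and CLOCK.

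Measures of the library were set against the 5 genes within groups, and by r none of the 35 relations passed after adjustment. The TMM factor had r = 0.68 with NR1D2 (permutation p = 0.010), 0.62 with PER1 (p = 0.0058) and -0.66 with NFIL3 (p = 0.0038), each with an adjusted permutation p of 0.059. The rho values were 0.72, 0.62 and -0.62 (adjusted permutation p = 0.047, 0.071 and 0.071), and r without the pair of farthest valves was 0.58, 0.68 and -0.54. The cardiomyocyte marker level had r = -0.55 with NR1D2, 0.59 with NFIL3 and 0.62 with CLOCK (adjusted permutation p = 0.059, 0.059 and 0.084), rho = -0.67, 0.58 and 0.55 (adjusted permutation p = 0.047, 0.071 and 0.15) and r = -0.49, 0.48 and 0.39 without the farthest valves. The total count had r = 0.65 with CLOCK and -0.56 with PER1 (adjusted permutation p = 0.073 and 0.074), rho = 0.55 and -0.45 (adjusted permutation p = 0.15 and 0.18) and r = 0.38 and -0.62 without the farthest valves. The share of counts on ENSOCUG00000029084 had r = 0.598 with NFIL3 (permutation p = 0.0078, adjusted 0.059). Its rho with NFIL3 was 0.499 (adjusted permutation p = 0.16), and r was 0.445 without the farthest valves. ARNTL had r = 0.08 with the cardiomyocyte level (permutation p = 0.76) and -0.09 with the TMM factor (p = 0.73).

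The within-group pattern depended on these measures unequally. With the marker level removed, r was -0.56 for NR1D2 with NFIL3 and -0.52 for PER1 with NFIL3 (adjusted permutation p = 0.053 for both), while ARNTL with CLOCK had r = 0.65 and passed (adjusted permutation p = 0.024). With the TMM factor removed, r was -0.46 and -0.35 for the first pairs (adjusted permutation p = 0.20 for both) and 0.59 for ARNTL with CLOCK (adjusted permutation p = 0.075), so no pair passed. In CPM of total counts without TMM, CLOCK turned positive with NR1D2 (r = 0.77, adjusted permutation p = 0.015) and with PER1 (r = 0.61, adjusted p = 0.069), whereas ARNTL with CLOCK, ARNTL with NFIL3 and NR1D2 with NFIL3 kept their signs at r = 0.52, 0.50 and -0.44. Neither pair that passed after TMM passed there (adjusted permutation p = 0.082 for NR1D2 with NFIL3 and 0.091 for PER1 with NFIL3, whose r was -0.42), PER1 with NR1D2 passed instead (r = 0.79, adjusted permutation p = 0.0043), and ARNTL with PER1 was at -0.065. ARNTL with NR1D2 was at r = 0.02 and CLOCK with NFIL3 at -0.10. CLOCK with NR1D2 was also positive, at 0.20 and 0.16, with the marker level or the TMM factor removed.

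**Figure D5:**
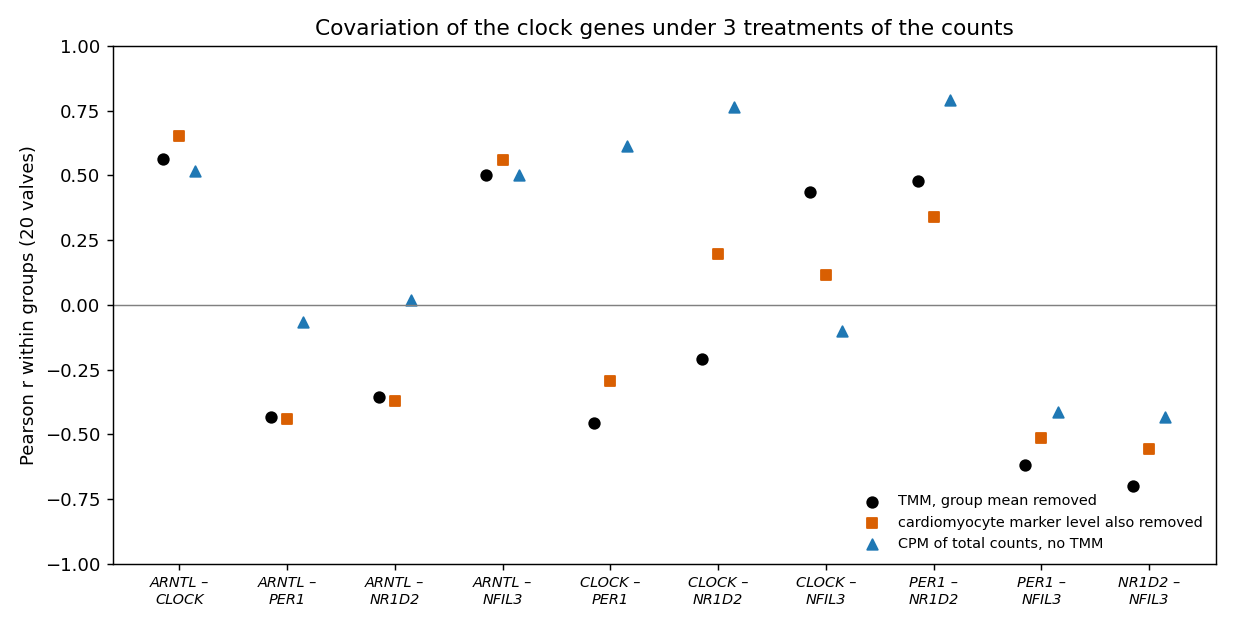
Pearson r within groups over 20 valves for the 10 pairs of clock genes, after TMM (circles), with the cardiomyocyte marker level also removed (squares) and in CPM of total counts without TMM (triangles). ARNTL with CLOCK stays between 0.52 and 0.65, whereas CLOCK with NR1D2 goes from -0.21 to 0.77.

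Correlations of the 5 genes with the other clock genes made 20 relations, of which those of NR1D2 with RORA (by r and rho) and with HLF (by rho) passed after adjustment. NR1D2 and RORA had r = 0.63 (permutation p = 0.0011, adjusted 0.022), rho = 0.65 (permutation p = 0.0017, adjusted 0.021) and r = 0.74 without the farthest valves. NR1D2 and HLF had r = 0.61 (permutation p = 0.026, adjusted 0.13), rho = 0.70 (permutation p = 0.0021, adjusted 0.021) and r = 0.61 without them. The central range of tested genes by r with NR1D2, described above, was -0.621 to 0.623. HLF (0.605) lay inside that range and RORA (0.632) just outside it. Within groups NR1D2 also had r = 0.68 with the TMM factor and -0.55 with the cardiomyocyte marker level. Whether its relations with RORA and HLF held with these measures removed was not tested. ARNTL and HLF had r = -0.56 (permutation p = 0.021, adjusted 0.13), rho = -0.43 (permutation p = 0.078, adjusted 0.22), and r = -0.20 without non-treated replicate 2 and dexfenfluramine replicate 5, so this relation rests on those valves.

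Among tested genes with a symbol, those most like ARNTL in their deviations over 20 valves were EIF6 (r = 0.74), WSB1 (0.66), PPM1G (0.65), FHL1 (0.64) and SLC4A4 (0.62), and those most opposed were SPG21 (-0.70), ZNF717 (-0.69), ILDR1 (-0.68), ZNF311 (-0.63) and ZC2HC1A (-0.62). For NR1D2 the most alike were AKAP11 (r = 0.85), DENND4C (0.84), NUP205 (0.82), YIPF1 (0.81) and MANEA (0.80), and the most opposed were OPTN (-0.82), THRAP3 (-0.82), JTB (-0.79), OSBPL1A (-0.78) and FUNDC1 (-0.78). These are the extremes of 3450 genes, ranked by the value itself, with the same libraries and normalization behind every point, and are given without a test. None of the listed clock genes was among them.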

How the data were processed

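RNA of 20 tricuspid valves was sequenced by the authors. The deposited values are counts of reads per Ensembl gene, whole numbers without normalization or filtering: per the methods and the submitters' processing notes, ribosomal RNA was depleted, reads of stranded libraries were aligned to oryCun2 with TopHat2 2.1.1, and read counts per gene were made with HTSeq (union mode). The annotation release and strand setting are not given in the sources used here.

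Columns were assigned to valves by name, 5 per group. Counts were normalized by TMM and tested by quasi-likelihood in edgeR 4.0.16 (R 4.3.3), where 1 model held all 20 valves and filterByExpr left 8683 genes, with Benjamini-Hochberg adjustment and a threshold of 0.05. The study names limma-voom with svaseq and RUVr without the number of factors, so these were alternatives. Total counts ran from 3247091 to 5921025, which leaves few reads for NFIL3, ARNTL and CIART, and counts of 3 or fewer were taken as the floor. The labels name no batch or hour of collection, and p-values measure the spread between these valves. Covariation used log2 CPM (prior count 2) minus the group mean, with 100000 permutations of valves within groups (Python 3.11.15, numpy 2.4.6, scipy 1.17.1, pandas 2.3.3; plots by matplotlib 3.10.9). Scripts were tested on simulated data.

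The genes described and all lists were chosen with earlier results of these data known. Symbols are the names in the study's supplementary list, which pairs 3513 of 23669 IDs, 563 of them printed there with 1 zero too many. Of that table, values were not used. Other clock genes without an ID there were not analysed here. A gene of the modifier list is not reported here. Named genes are the 5, every tested gene of the other clock list, called genes of the modifier, output, glucocorticoid, immediate early and temperature lists (up to 4 each, smallest p first), and, for ARNTL and NR1D2, the 5 genes with a symbol of highest and of lowest r. Markers of cardiomyocytes, adipocytes, valve interstitial, endothelial, smooth muscle and erythroid cells and macrophages were fixed as lists. Alternatives were DESeq2 1.42.0, limma-voom (limma 3.58.1), svaseq (sva 3.50.0, 4 variables), 1 RUVr factor, other size factors and filters, a replicate block, the 2 groups alone, a stricter threshold of 0.01 and each valve left out. Cardiomyocyte markers as a covariate, and their removal or that of the TMM factor from the covariation, were added after seeing the data. No genome of the files' build was used, so no sequence or coordinate is given.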

Additional observations from a re-analysis of the deposited data

Results flagged for a closer look

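Of 36 sets of 5 valves of 1 clock gene, 2 had a valve far from the others, and chance alone gives about 1 in 20. PER1 in pergolide replicate 2 was at 3.57 log2 CPM, while the other four valves lay between 4.29 and 4.48. HLF in serotonin replicate 2 was at 3.36 log2 CPM, below the range of 3.85 to 4.04 of the others.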

How the results depend on the processing

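Outside the fits that leave out a valve, each tested log2 fold change or difference was refitted in several settings of the same counts. Of these refits, 643 kept the direction and the side of the threshold, 38 no longer passed, 5 newly passed and 13 reversed. The refits share their valves, so they are not separate results. The cause of these moves was not tested. Of the 5 clock genes against non-treated valves, NFIL3 after dexfenfluramine alone reversed, to 0.0521 and 0.119 with svaseq variables in limma-voom and edgeR. Of the other clock genes against non-treated valves, 1 was called for pergolide at an adjusted p under 0.01, and 1 for dexfenfluramine at that threshold and with svaseq in either tool; no valve left out moved the serotonin count from 0, while pergolide ranged from 2 to 4 and dexfenfluramine stayed at 2. Between pergolide and serotonin, 1 of 9 was called with svaseq in edgeR and 1 with the replicate block (0 to 1 with a valve left out). ARNTL reversed to -0.0633 with limma-voom and -0.237 with svaseq in it, and RORA to -0.00304 and -0.00424 with svaseq. With a valve left out the ranges were -0.225 to 0.427 for ARNTL, -0.0367 to 0.0984 for CLOCK and -0.102 to 0.111 for RORA. Between dexfenfluramine and serotonin, 2 of 9 were called with DESeq2 and 0 with limma-voom, without a filter, with at least 10 counts in every valve (which drops ARNTL, NFIL3 and CIART), with the replicate block and at 0.01 (0 to 2 with a valve left out). RORA reversed to 0.0118 with upper-quartile scaling and NR1D2 to -0.143 with the cardiomyocyte covariate, and with a valve left out CLOCK ran from -0.0601 to 0.111, NR1D2 from -0.0563 to 0.117, CIART from -0.0111 to 0.546 and RORA from -0.158 to 0.0548. Between dexfenfluramine and pergolide, CLOCK reversed to 0.0117 (upper quartile), 0.108 (svaseq in either tool) and 0.0785 (covariate), and HLF to -0.0739 and -0.0255 (svaseq) and -0.0253 (covariate), with ranges of -0.0937 to 0.0784 for CLOCK, -0.0366 to 0.128 for CRY2 and -0.0326 to 0.161 for HLF when a valve was left out. Over all tested genes the 103 serotonin calls ran from 0 to 538 between settings, and were 0 without non-treated replicate 2 or 5 or serotonin replicate 1.

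Pairs that passed within groups numbered 2 in the report's setting, 1 with Spearman's rho, 1 with the replicate block, 0 without the farthest valves, 6 without non-treated valves, 0 without drug valves, 1 with cardiomyocyte markers removed, 0 with the TMM factor removed and 1 to 5 with a valve left out. In CPM without TMM 2 other pairs passed, PER1 with NR1D2 and CLOCK with NR1D2. That scale turned ARNTL with NR1D2 to 0.0177, CLOCK with PER1 to 0.613, CLOCK with NR1D2 to 0.765 and CLOCK with NFIL3 to -0.101, and CLOCK with NR1D2 reached 0.196 and 0.159 with the markers or the TMM factor removed. Same-numbered valves did not deviate together (mean r -0.0547 to 0.0177 by number, and 0.00508 for different numbers, with 5 of 20 valves closest to their own number), so numbers were not read as pairs. Depth limits ARNTL, NFIL3 and CIART, and ARNTL has the largest SE of the 9 clock genes against non-treated valves in each treatment (0.512 to 0.615).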

Other observations

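Markers of other cells were counted against the share of all tested genes that edgeR called higher, 12.1% for pergolide and 13.5% for dexfenfluramine, or called in either direction, 24.8% and 28.9%. Their symbols came only from the study's lists of differentially expressed genes in these valves. An ID was found for 4 of 8 adipocyte, 8 of 10 interstitial, 2 of 8 endothelial, 2 of 8 macrophage and 3 of 7 smooth muscle markers. The counts below are therefore no independent evidence of a change. Of 4 adipocyte markers (ADIPOQ, CIDEA, PPARG and LEP), all 4 rose after pergolide by edgeR's test (2 with limma-voom), with a median log2 fold change of 2.14, and their summed level was 62.3 to 193.5 CPM against 24.1 to 75.6 CPM in non-treated valves. After serotonin the sum was 32.0 to 148.9 CPM and after dexfenfluramine 3.78 to 109.6 CPM, and edgeR called 0 of 4 in either (3 and 1 at an unadjusted p under 0.05, and 0 with DESeq2 or limma-voom). Of 8 markers of valve interstitial cells, 5 rose after pergolide and 4 after dexfenfluramine, among them the collagen genes COL1A1, COL1A2 and COL3A1 in both. Of 2 endothelial markers both fell after pergolide, PECAM1 by 0.74 and EMCN by 0.54 on the log2 scale. Of 2 macrophage markers, C1QA rose after pergolide. TAGLN, one of 3 smooth muscle markers, rose after both drugs by edgeR's test and MYH11 fell after dexfenfluramine. The 7 erythroid markers had no ID. Within groups, the summed adipocyte, valve interstitial and endothelial markers gave 15 of the 35 relations with the 5 clock genes, and none passed after adjustment. The strongest were those of CLOCK with the adipocyte sum (r = 0.56, permutation p = 0.082, adjusted 0.16, and 0.052 without the farthest valves) and with the interstitial sum (r = -0.55, permutation p = 0.022, adjusted 0.084, and -0.19). The part of macrophage and smooth muscle markers was not tested.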
